A study of Mus musculus with 16 samples.

Results

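The genes described here belong to the cellular defence against oxidants and reactive chemicals that is organised around the transcription factor NRF2 and the tripeptide glutathione. The list held 43 genes, chosen by function and with earlier results of these data known. Its counts are therefore not those of a list chosen blind to the data. Every probe was taken whose gene symbol, in the array's annotation or as currently assigned, was on the list. Of the 43 genes, 39 had a probe, and each of the 39 had at least 1 probe detected on 2 or more arrays, which was the condition for being tested. These 39 genes, with 63 tested probes of 65, stood among 10438 genes tested on the array. No probe was matched to Gsr, G6pdx, Pgd or Prdx6, which are not described further. In 36 of the 39 genes the probe used was detected on all 16 arrays. The exceptions were Gsta3 (14 arrays), Slc7a11 (11 arrays) and Gstt1 (10 arrays).

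The RNA came from trabecular osteoblasts (TOs), primary bone-forming cells that were taken from the long bones of fetal C57BL/6 mice 1 day before birth and grown on MicroHex plastic microcarriers. The tissue label and the methods name the femur, the source label the tibia. The mice were Pthrp-/-, lacking parathyroid hormone-related protein (PTHrP), or Pthrp+/+, and since the Pthrp-/- genotype is lethal around birth, its cells come from fetuses that would not have survived. For 6 days the cultures were kept either at 0g, which here means a horizontally rotating Synthecon vessel that simulates weightlessness, or at 1g, in agarose-coated plasticware. They were either treated with the peptide PTHrP1-36 at 10 nM for 2 h per day or left untreated, with a daily change of medium. At 0g, a treated and an untreated vessel were rotated together on the same axis, so these are not separate runs. The 8 conditions were therefore Pthrp-/- and Pthrp+/+ TOs, each at 0g and at 1g, each treated and untreated, with 2 Illumina Mouse Ref-8 v2.0 arrays per condition and 16 in all. What the rotating vessel itself does and what 0g does cannot be told apart. The replicates are described as duplicate experiments and nothing ties them to different animals, so the spread behind each p-value may be technical.

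NRF2, encoded by Nfe2l2, is held at a low level by the adaptor KEAP1, which hands it to a ubiquitin ligase for destruction. Oxidants and electrophiles modify KEAP1, NRF2 accumulates, pairs with a small MAF protein and binds antioxidant response elements, from which the repressor BACH1 can keep it away. Some of its known targets make glutathione and the NADPH that keeps it reduced. Others attach glutathione to reactive molecules or hydrolyse them, remove peroxides and superoxide, or handle quinones, heme and iron. In bone, high levels of oxidants are known to impair osteoblasts and to favour osteoclasts.

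The core of the antioxidant response element, TGACNNNGC, was looked for on both strands of the RefSeq promoter windows of the mouse build GRCm38.p6, which run from 250 bases before to 50 bases after a transcription start. It was present in 12.4% of all 32851 windows and in 22.9% of the 48 windows of the listed genes. Of the 37 genes with a window, 11 (29.7%) had a match in at least 1 of them, against 14.0% of all 27025 genes with a window. No match was found in the windows of Nqo1, which do not reach sites more than 250 bases before a start. Hmox1 and Gclc had no window. The stretches around a match are shown for some of the genes described below whose RNA differed in untreated Pthrp-/- TOs at 1g. RNA of Gclm, Me1, Prdx1 and Txnrd1 was higher there and that of Mgst1 and Gsta3 lower. A match can thus be seen beside changes in both directions. Srxn1 and Sod1, which were higher, and Gstm5, which was lower, also had a match and are not shown. The stretches shown run 5′ to 3′ in the direction of the gene, and capitals mark the match. A match is a sequence of letters and was not tested for binding.
Gclm: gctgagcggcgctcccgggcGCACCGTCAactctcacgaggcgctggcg
Me1: cggctcggccgatgccgccgTGACTCAGC
Prdx1: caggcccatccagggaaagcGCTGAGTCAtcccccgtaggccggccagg
Txnrd1: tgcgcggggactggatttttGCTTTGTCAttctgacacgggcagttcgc
Mgst1: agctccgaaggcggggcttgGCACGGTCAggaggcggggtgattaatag
Gsta3: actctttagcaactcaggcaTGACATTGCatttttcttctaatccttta

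In GRCm38.p6 these stretches lie at chr3:122245403-122245451 on the plus strand (Gclm), chr9:86695912-86695940 on the minus strand (Me1), chr4:116685446-116685494 on the plus strand (Prdx1), chr10:82859094-82859142 on the plus strand (Txnrd1), chr6:138140451-138140499 on the plus strand (Mgst1) and chr1:21240444-21240492 on the plus strand (Gsta3). Me1, Mgst1 and Txnrd1 have further annotated starts, whose windows held no match. The match is written as TGACNNNGC in Me1 and Gsta3 and lies on the opposite strand in Gclm, Prdx1, Txnrd1 and Mgst1. Its first base lies 6 bases before the start in Me1, 56 in Mgst1, 92 in Txnrd1, 121 in Gsta3, 133 in Prdx1 and 134 in Gclm, and in Me1 it runs across the start. Among genes with a window, a match was present in 6 of 20 that were higher in untreated Pthrp-/- TOs at 1g, in 3 of 9 that were lower, and in 0 of 6 that did not pass the test.

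Levels are given as normalized log2 intensity, on which a difference of 1 is a 2-fold change, and they compare arrays for 1 probe and not 1 gene with another. Where a gene had several probes, the brightest stands for it. A gene is said to have risen or fallen where limma's Benjamini-Hochberg adjusted p, over all tested probes, was under 0.05. Each array detected 12161 to 13560 of 25697 probes, and replicate arrays correlated with each other at 0.989 to 0.997. The osteoblast markers Alpl, Col1a1, Col1a2, Sparc and others were detected in both genotypes, with 8 to 10 of 11 tested markers detected on each Pthrp-/- array and 10 to 11 on each Pthrp+/+ array, at summed linear levels of 19358 to 27482 in Pthrp-/- TOs and 21573 to 31406 in Pthrp+/+ TOs. The osteoblast marker Ibsp was detected on Pthrp+/+ arrays but on no Pthrp-/- array, and Dmp1 on no array. The macrophage markers were not shared: 5 to 7 of 24 were detected on each Pthrp-/- array and 22 to 24 on each Pthrp+/+ array, and their summed level was 724 to 972 in Pthrp-/- TOs, against 63852 to 106480 in Pthrp+/+ TOs. Adgre1, C1qa, Cx3cr1, Itgam and Ptprc were among 14 of these 24 that were detected on no Pthrp-/- array. The 4 tested adipocyte markers summed to 779 to 1430 in Pthrp-/- TOs and 11684 to 18932 in Pthrp+/+ TOs, while Fabp4 and Plin1 were detected on no array. For 0g in untreated Pthrp+/+ TOs and for ablation at 1g, 1 and 3 of 5 osteoclast markers passed in either direction. So did 3 and 1 of 5 chondrocyte markers, 2 and 2 of 3 endothelial markers, and 0 and 1 of 1 erythroid marker. Over all genes 13.0% rose and 13.4% fell at 0g, and 30.5% were higher and 22.0% lower with ablation. The endothelial markers Cdh5, Emcn, Pecam1 and Tie1 were detected on no array, and the erythroid marker had a linear level of only 21.5 to 37.4. In such bulk RNA, fewer cells of a type and less RNA per cell cannot be told apart. No probe on the array was matched to Pthlh, the gene that encodes PTHrP, so the genotype could not be checked on its target. The gravity labels could not be checked on any gene either.

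**Figure D1:**
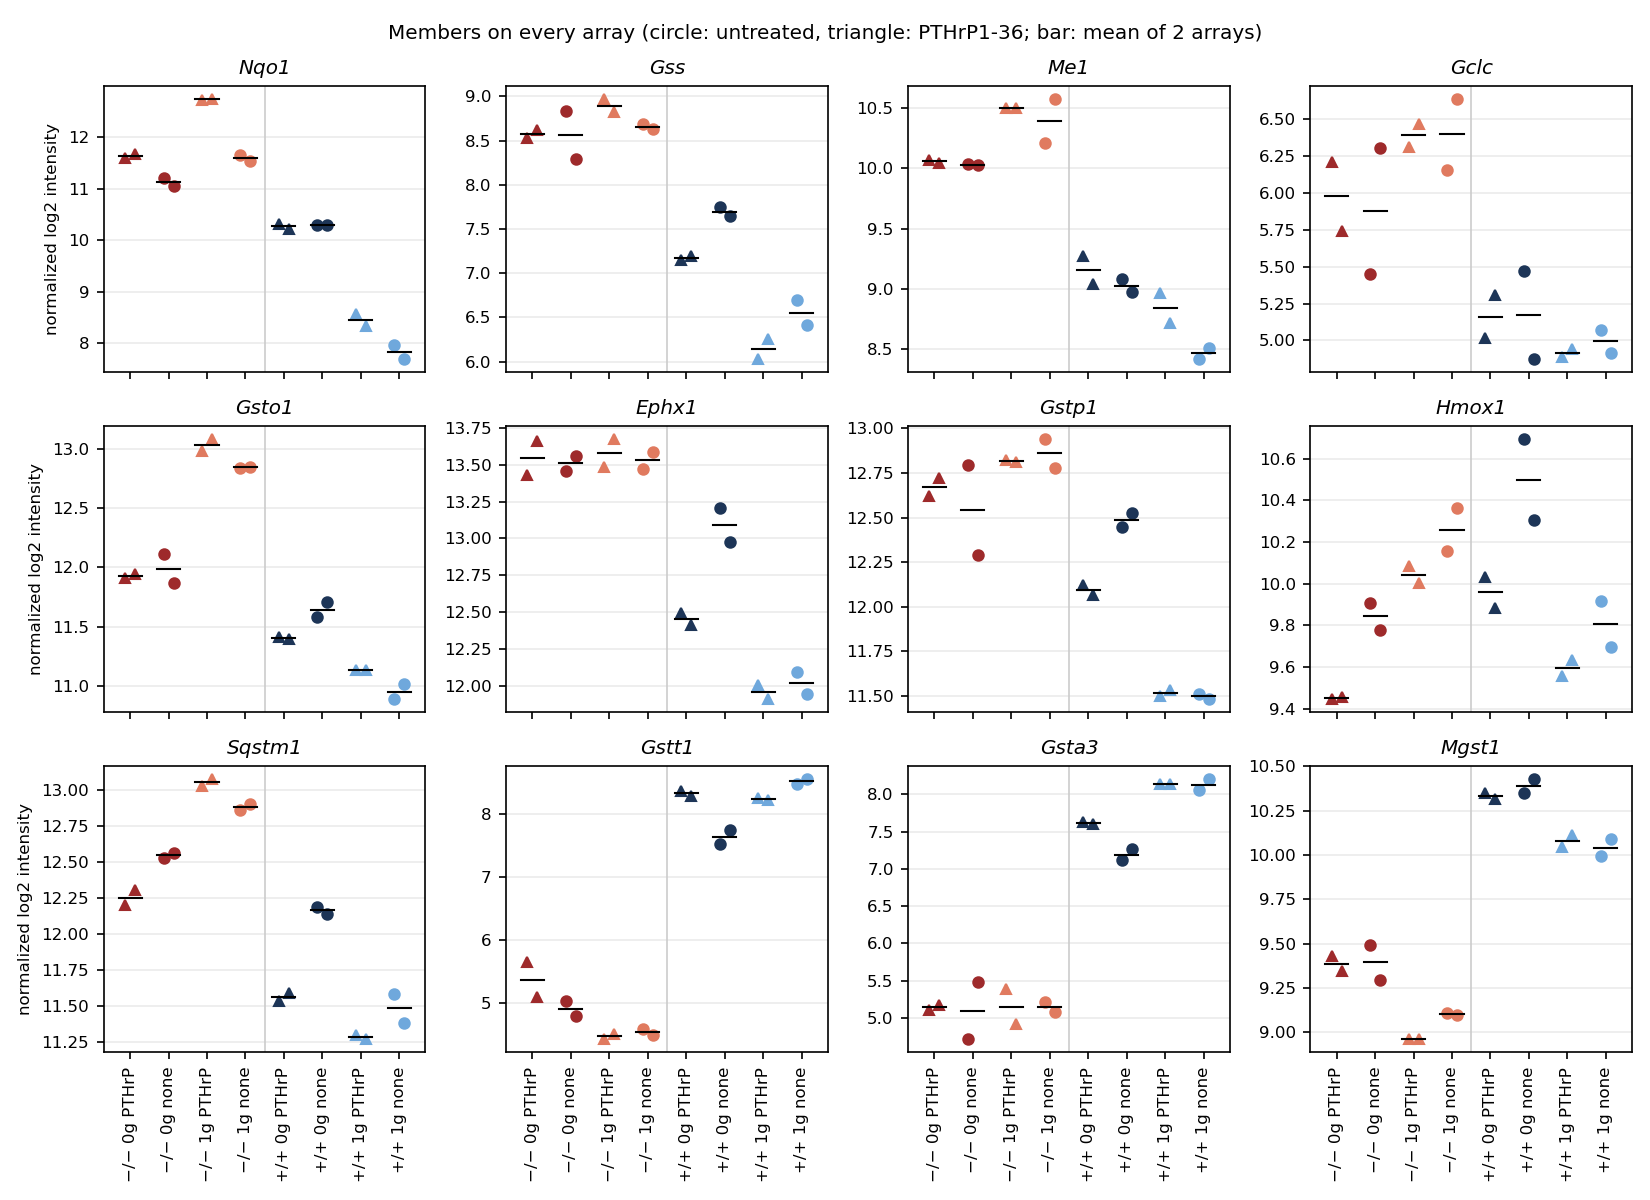
Normalized log2 intensity (vertical axis) of 12 of the genes on each of the 16 arrays, by condition (horizontal axis; −/− and +/+ for the Pthrp genotype, PTHrP for treated and none for untreated). Symbols are single arrays and bars the mean of 2. Nqo1 lay between 11.05 and 12.74 in Pthrp-/- TOs and between 7.70 and 10.31 in Pthrp+/+ TOs, while Gstt1, Gsta3 and Mgst1 were lower in every Pthrp-/- array than in any Pthrp+/+ array.

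Simulated weightlessness in untreated Pthrp+/+ TOs raised 12 of the 39 genes and lowered 3. Over all genes tested, 13.0% rose and 13.4% fell. The risers were Nqo1, Gss, Ephx1, Gstp1, Hmox1, Gsto1, Sqstm1, Me1, Esd, Osgin1, Ftl1 and Mgst1, and the genes that fell were Gsta3, Gstt1 and Blvrb. The median change was 0.21 on the log2 scale over the 39 genes, beside 0.04 over all genes. With cyclic loess in place of quantile normalization the split was 10 up and 4 down among the 39 genes, with 1026 up and 1654 down over all genes in place of 1357 and 1402.

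Of the genes for quinones, heme and iron, 5 of 7 rose and 1 fell. Nqo1 encodes the NAD(P)H quinone reductase, the most used reporter of NRF2 activity. It was at 10.30 and 10.30 at 0g, against 7.96 and 7.70 at 1g. The groups did not overlap, and the change was 2.48 ± 0.12 (SE, n = 2 each), or 5.56-fold, with an adjusted p of 1.15e-08 from limma. A second, dim Nqo1 probe, detected on 7 arrays, differed by 0.10 here and did not pass.

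Hmox1, which encodes heme oxygenase-1, the enzyme that opens the heme ring, was at 10.69 and 10.30 at 0g, against 9.92 and 9.70 at 1g. The rise was 0.69 ± 0.14 (SE, n = 2 each), with a limma adjusted p of 0.00208. Sqstm1, whose product p62 carries cargo to autophagy and can bind KEAP1, was at 12.19 and 12.14 at 0g, against 11.58 and 11.38 at 1g, a rise of 0.68. Osgin1 rose by 0.52 and Ftl1, the ferritin light chain, by 0.47. The only Ftl1 probe was dim, at linear intensities of 73.6 to 110 over all arrays, where array medians over all probes were 60.6 to 70.3. Blvrb, which reduces biliverdin and flavins, was at 11.57 and 11.46 at 0g, against 12.08 and 12.13 at 1g, and fell by 0.59. Fth1, the ferritin heavy chain, was among the brightest probes and differed by 0.03.

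Of the 7 tested genes that supply glutathione and NADPH, Gss and Me1 rose and the other 5 did not pass the test. Gss, glutathione synthetase, performs the second step of glutathione synthesis. It was at 7.75 and 7.64 at 0g, against 6.70 and 6.41 at 1g, a change of 1.14 ± 0.16 (SE, n = 2 each), or 2.21-fold, with a limma adjusted p of 0.000148. Gclc and Gclm encode the catalytic and the modifier subunit of glutamate-cysteine ligase, which performs the rate-limiting step before it. Gclc was at 5.47 and 4.87 at 0g, against 5.07 and 4.92 at 1g, so that the groups overlapped. Gclm was at 9.08 and 9.25 at 0g, against 8.93 and 8.97 at 1g, a difference of 0.21 with a limma adjusted p of 0.298. Me1, the cytosolic malic enzyme that makes NADPH, was at 9.08 and 8.97 at 0g, against 8.42 and 8.51 at 1g, and rose by 0.56.

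Of the 13 conjugation genes, 5 rose and 2 fell. Ephx1, the microsomal epoxide hydrolase, was at 13.21 and 12.97 at 0g, against 12.10 and 11.94 at 1g. It rose by 1.07 ± 0.12 (SE, n = 2 each), with a limma adjusted p of 2.7e-05. Gstp1, the pi-class glutathione transferase, was at 12.45 and 12.52 at 0g, against 11.51 and 11.48 at 1g, and rose by 0.99. Other transferases went the other way. Gsta3, of the alpha class, was at 7.11 and 7.27 at 0g, against 8.06 and 8.20 at 1g, and fell by 0.94. Gstt1, of the theta class, was at 7.52 and 7.75 at 0g, against 8.48 and 8.55 at 1g, and fell by 0.88. Gsto1 rose by 0.69 and Mgst1 by 0.35.

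Esd, which hydrolyses S-formylglutathione, was measured by 4 probes that differed in size. Its brightest probe rose by 0.54 at 0g, while the other 3 rose by 1.70, 2.03 and 2.16. Of the 12 peroxide and superoxide genes, 0 passed in either direction by limma's adjusted p or by the model of Wright and Simon, which the study used, while 4 were higher and 0 lower at an unadjusted p under 0.05. Thioredoxin reductase Txnrd1 was at 6.14 and 5.60 at 0g, against 5.59 and 6.04 at 1g, where the groups overlapped. Other probes of Gpx8 rose in this comparison, by 0.39 and 0.28, while its brightest probe, at 0.32, did not pass.

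When each of the 16 arrays was left out in turn, 10 of the 15 calls held in every fit. Me1 lost its call without array 1 of untreated Pthrp+/+ TOs at 1g (adjusted p = 0.0541 from limma), Esd, Osgin1 and Mgst1 each lost it without either of 2 arrays of the groups compared, and Ftl1 lost it in 9 fits, with values of 0.33 to 0.62. Macrophage markers moved with this comparison: 23 of 24 fell, with a median change of −1.06 over the list, and their summed level was 63852 to 63929 at 0g, against 103348 to 106480 at 1g. Of 11 osteoblast markers 5 fell and 1 rose, and of 4 adipocyte markers 3 fell, with summed levels of 11684 to 11969.5 at 0g, against 17962 to 18932 at 1g. Their part in the changes of the defence genes was not tested.

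In treated Pthrp+/+ TOs the effect of 0g was called for fewer genes. Nqo1, Gss, Gstp1 and Ephx1 rose, 4 of 39, and 0 of 39 fell by limma or by Wright and Simon's model (15 were higher and 1 lower at an unadjusted p under 0.05), while over all genes 3.40% rose and 4.47% fell. These 4 had also risen in untreated cells, on other arrays. Nqo1 was at 10.31 and 10.23 at 0g, against 8.56 and 8.33 at 1g, a rise of 1.82 ± 0.12 (SE, n = 2 each). Gss was at 7.15 and 7.19 at 0g, against 6.03 and 6.25 at 1g, a rise of 1.03. Gstp1 rose by 0.58 and Ephx1 by 0.49, and both lost the call without any 1 of the 4 arrays compared. Of 24 macrophage markers 11 fell here, with a median change of −0.41 over the list, and their part was not tested.

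In Pthrp-/- TOs, more of the genes that passed fell at 0g than rose. Of the 39 genes, 1 rose and 8 fell in untreated cells and 30 did not pass, where 5.26% of all genes rose and 4.05% fell. The median change was −0.23 over the 39 genes and −0.01 over all genes. Gsto1, an omega-class transferase, was at 12.11 and 11.86 at 0g, against 12.84 and 12.85 at 1g, and fell by 0.86 ± 0.11 (SE, n = 2 each), with a limma adjusted p of 0.000208. Taldo1, transaldolase of the pentose phosphate pathway, was at 11.69 and 11.59 at 0g, against 12.30 and 12.32 at 1g, and fell by 0.67. Nqo1 was at 11.21 and 11.05 at 0g, against 11.65 and 11.53 at 1g, and fell by 0.46. Ftl1, Esd, Srxn1, Prdx1 and Blvrb fell by 0.59, 0.51, 0.43, 0.39 and 0.37. Gpx1, the main cytosolic glutathione peroxidase, rose by 0.38.

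Gsto1 and Taldo1 held their calls when any array was left out, and the other 7 lost them in 2 to 12 of 16 fits. Nqo1 lost its call without array 1 or 2 of the 1g group or array 2 of the 0g group. A fit of these 2 conditions alone called 0 of 39 by limma's adjusted p and 12 at an unadjusted p under 0.05. In these cells macrophage markers were near the limit of detection in both groups, with a summed level of 724 to 793 at 0g, against 865 to 867 at 1g. The paper reports more non-viable Pthrp-/- TOs in the rotating vessel than in normal gravity, and few non-viable Pthrp+/+ TOs in either. It also reports fewer non-viable Pthrp-/- TOs with the peptide. The part of cell viability in the comparisons that involve Pthrp-/- TOs was not tested.

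In treated Pthrp-/- TOs, 12 of 39 genes fell at 0g and 3 rose, where over all genes 3.57% fell and 5.20% rose. The arrays are different from those of the untreated cells. Gsto1, Nqo1, Esd, Blvrb, Taldo1 and Srxn1 fell in both. Gsto1 was at 11.91 and 11.94 at 0g, against 12.98 and 13.08 at 1g, a fall of 1.11. Nqo1 was at 11.60 and 11.67 at 0g, against 12.73 and 12.74 at 1g, and fell by 1.10 ± 0.12 (SE, n = 2 each), with a limma adjusted p of 4.81e-05. Gclm was at 9.04 and 8.77 at 0g, against 9.79 and 9.82 at 1g, and fell by 0.90. Slc7a11, which imports the cystine that limits glutathione synthesis, fell by 0.82, Sqstm1 by 0.80, Hmox1 by 0.59 and Osgin1 by 0.49. Gpx3, the secreted glutathione peroxidase, fell by 0.86. Gstm1 and Mgst1 rose by 0.57 and 0.43. Gstt1, detected on both arrays at 0g and not well above background at 1g, was at least 1.38-fold higher. Of the 15 calls, 9 held without any 1 array, and Hmox1, Osgin1, Slc7a11, Srxn1, Gstm1 and Mgst1 lost theirs in 1 to 10 of the fits. Of 24 macrophage markers 0 passed here by limma or by Wright and Simon's model (3 at an unadjusted p under 0.05), and their summed level was 906 to 972 at 0g, against 857 to 875 at 1g.

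**Figure D2:**
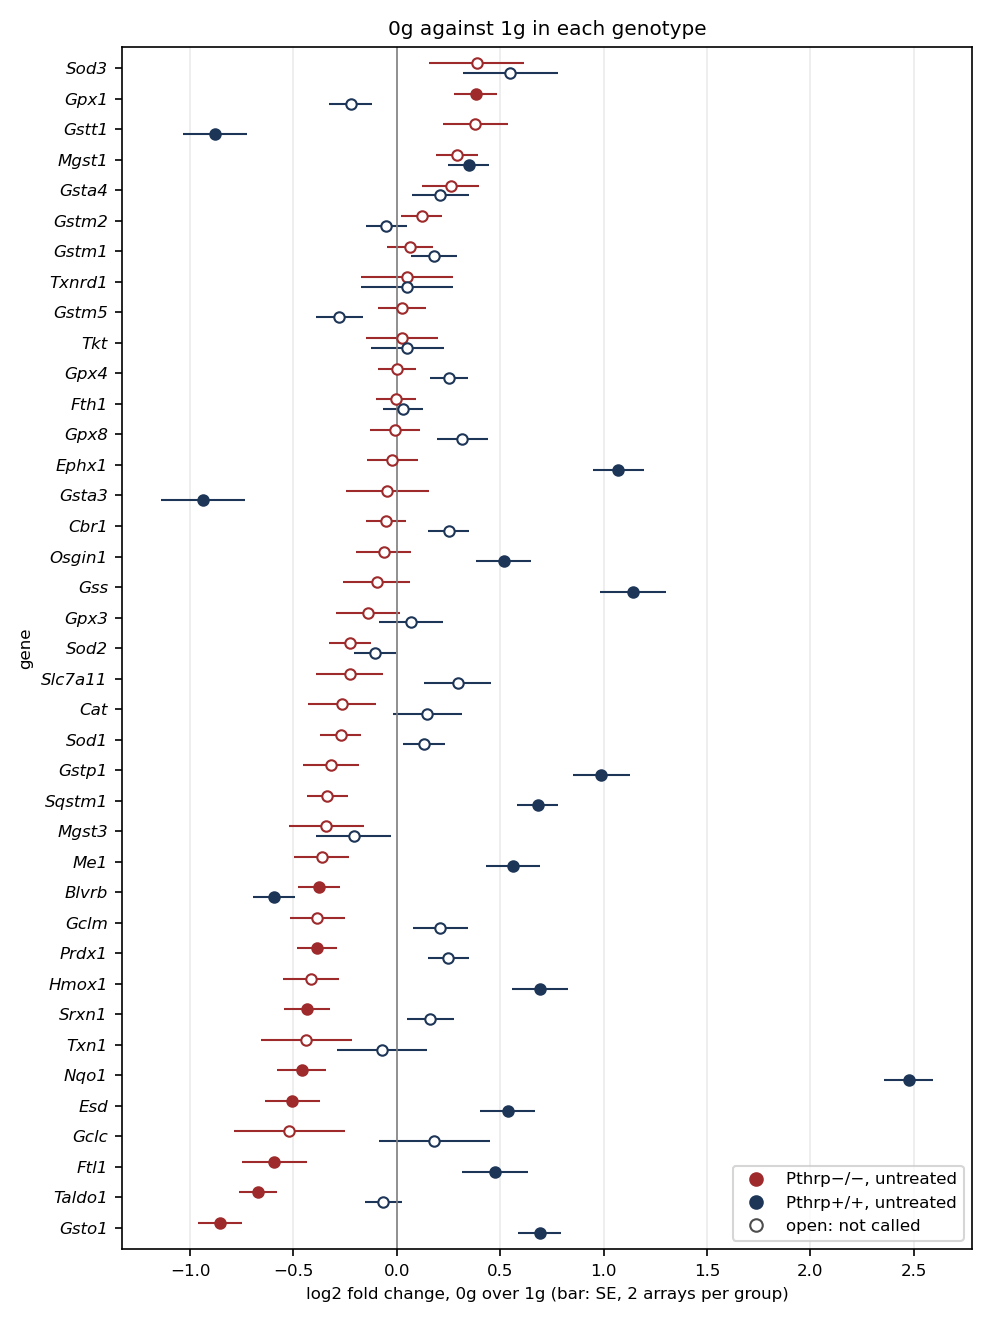
Log2 fold change of 0g over 1g (horizontal axis) for the 39 genes (vertical axis) in untreated TOs of each genotype, with the standard error as bars and filled points for an adjusted p under 0.05. Nqo1 stood at −0.46 in Pthrp-/- and 2.48 in Pthrp+/+ TOs, and Gsto1 at −0.86 and 0.69.

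The difference between the genotypes in their response to 0g was tested directly as the change in untreated Pthrp-/- TOs minus that in untreated Pthrp+/+ TOs. It was below 0 for 15 of 39 genes and above 0 for 3, where over all genes 12.9% were below and 12.9% above. With cyclic loess the numbers were 13 and 3 for the 39 genes, and 1040 and 1669 in place of 1344 and 1349 for all genes. The difference was −2.94 ± 0.17 (SE) for Nqo1, with a limma adjusted p of 6.2e-08. By their brightest probes it was −1.55 for Gsto1, −1.31 for Gstp1, −1.24 for Gss, −1.11 for Hmox1, −1.09 for Ephx1 and −1.04 for Esd, whose other 3 probes were at −3.57, −3.22 and −2.98. Each of these differences takes the gravity given for the Pthrp-/- arrays as correct, which could not be checked. Esd, Ftl1 (by its dim probe), Gsto1 and Nqo1 rose at 0g in Pthrp+/+ TOs and fell at 0g in Pthrp-/- TOs. Gsta3, Gstt1 and Gpx1 had differences above 0. Of the 18 calls, 14 held without any 1 array, and Gclm, Gsta3, Osgin1 and Srxn1 lost theirs in 1 to 8 of the fits. Over all tested probes, the 0g changes of the genotypes, which share no array, correlated at −0.34 in untreated and −0.25 in treated cells. Of 24 macrophage markers 18 had a difference above 0, as did 3 of 4 adipocyte markers, and of 11 osteoblast markers 6 were above 0 and 1 below. Their part was not tested, nor was that of cell viability.

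Ablation of Pthrp was compared at 1g in untreated cells first. There 23 of the 39 genes were higher in Pthrp-/- TOs and 9 were lower, and 7 did not pass. Over all genes 30.5% were higher and 22.0% lower. The median difference was 0.39 over the 39 genes and 0.12 over all genes. With cyclic loess the split was 19 and 10 for the 39 genes and 2286 and 2853, in place of 3187 and 2294, for all genes, whose median was then −0.01.

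Of the quinone, heme and iron genes, 5 of 7 were higher and 1 was lower. Nqo1 was at 11.65 and 11.53 in Pthrp-/- TOs, against 7.96 and 7.70 in Pthrp+/+ TOs. The groups stood far apart, with a difference of 3.77 ± 0.12 (SE, n = 2 each), or 13.6-fold, and a limma adjusted p of 1.07e-11. The dim Nqo1 probe was higher by 1.46. Sqstm1 was at 12.86 and 12.90 in Pthrp-/- TOs, against 11.58 and 11.38 in Pthrp+/+ TOs, and was higher by 1.40. Osgin1 was higher by 1.02 and Ftl1 by 0.81. Hmox1 was at 10.16 and 10.36 in Pthrp-/- TOs, against 9.92 and 9.70 in Pthrp+/+ TOs, a difference of 0.45 with a limma adjusted p of 0.0142. Without array 2 of either group the Hmox1 difference was 0.35 or 0.34 and no longer passed. Blvrb was at 10.92 and 10.96 in Pthrp-/- TOs, against 12.08 and 12.13 in Pthrp+/+ TOs, a difference of −1.17 (fold 0.445).

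Of the supply genes 5 of 7 were higher, and the other 2, Taldo1 and Tkt, differed by −0.03 and 0.17 and did not pass. Gss was at 8.69 and 8.63 in Pthrp-/- TOs, against 6.70 and 6.41 in Pthrp+/+ TOs, 4.30-fold higher, with a difference of 2.10 ± 0.16 (SE, n = 2 each) and a limma adjusted p of 1.13e-07. Me1 was at 10.21 and 10.57 in Pthrp-/- TOs, against 8.42 and 8.51 in Pthrp+/+ TOs, and was higher by 1.93. Gclc was at 6.16 and 6.64 in Pthrp-/- TOs, against 5.07 and 4.92 in Pthrp+/+ TOs, a difference of 1.41 ± 0.27 (SE, n = 2 each). Gclm was at 9.45 and 9.53 in Pthrp-/- TOs, against 8.93 and 8.97 in Pthrp+/+ TOs, a smaller difference of 0.54. Slc7a11 was at 5.85 and 5.79 in Pthrp-/- TOs, against 4.63 and 4.84 in Pthrp+/+ TOs, where it was detected on 1 of 2 arrays. The 4 genes from cystine import to glutathione synthesis (Slc7a11, Gclc, Gclm and Gss) were thus all higher in untreated Pthrp-/- TOs at 1g.

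The conjugation genes split, with 7 of 13 higher and 5 lower. Gsto1 was at 12.84 and 12.85 in Pthrp-/- TOs, against 10.89 and 11.01 in Pthrp+/+ TOs, and was higher by 1.89 ± 0.11 (SE, n = 2 each). Ephx1, Gstp1, Mgst3, Esd, Gsta4 and Cbr1 were higher by 1.51, 1.36, 1.04, 0.99, 0.55 and 0.39. The other 3 probes of Esd were higher by 2.71, 2.74 and 2.98. Gstt1 was at 4.58 and 4.49 in Pthrp-/- TOs, not well above background on either array, against 8.48 and 8.55 in Pthrp+/+ TOs. It was at least 11.6-fold lower, with a limma adjusted p of 1.06e-10. This bound sets the mean of the Pthrp+/+ arrays against the lowest level at which probes were detected on the Pthrp-/- arrays.

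Gsta3 was at 5.21 and 5.08 in Pthrp-/- TOs, against 8.06 and 8.20 in Pthrp+/+ TOs, a difference of −2.99 (fold 0.126). Mgst1, a microsomal transferase, was at 9.11 and 9.10 in Pthrp-/- TOs, against 9.99 and 10.09 in Pthrp+/+ TOs, a difference of −0.94 ± 0.10 (SE, n = 2 each). Gstm2 and Gstm5, of the mu class, differed by −0.88 and −0.38. The mu-class genes lie next to each other on the genome and are alike in sequence, so that their probes may share signal.

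Of the peroxide and superoxide genes, 6 of 12 were higher and 3 lower, most by less than 2-fold. Txnrd1 was at 6.48 and 6.90 in Pthrp-/- TOs, against 5.59 and 6.04 in Pthrp+/+ TOs, a difference of 0.87 ± 0.22 (SE, n = 2 each) with a limma adjusted p of 0.00525. Without array 1 of the Pthrp+/+ or array 2 of the Pthrp-/- group it was 0.65 or 0.66 and no longer passed. Gpx4, which reduces lipid peroxides, was higher by 0.58, and Gpx8, Prdx1, Srxn1 and Sod1 by 0.47, 0.33, 0.33 and 0.32. Gpx3, catalase (Cat) and Gpx1 differed by −0.59, −0.47 and −0.37. Of all 32 calls, 21 held without any 1 array, and 11 (Cat, Gpx1, Gpx3, Gpx8, Gsta4, Gstm5, Hmox1, Prdx1, Sod1, Srxn1 and Txnrd1) lost theirs in 1 to 3 of the fits.

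At 0g in untreated cells, 12 genes were higher and 10 lower in Pthrp-/- TOs, against a background of 17.3% higher and 15.0% lower. The median difference was −0.05 over the 39 genes. Nqo1 was at 11.21 and 11.05 in Pthrp-/- TOs, against 10.30 and 10.30 in Pthrp+/+ TOs, higher by 0.83. Me1 was at 10.03 and 10.03 in Pthrp-/- TOs, against 9.08 and 8.97 in Pthrp+/+ TOs, higher by 1.00. Gss, Txnrd1 and Mgst3 were higher by 0.86, 0.87 and 0.91. Hmox1 and Prdx1, both higher in Pthrp-/- TOs at 1g, were lower at 0g. Hmox1 was at 9.91 and 9.78 in Pthrp-/- TOs, against 10.69 and 10.30 in Pthrp+/+ TOs, a difference of −0.66 ± 0.14 (SE, n = 2 each) with a limma adjusted p of 0.00251. Prdx1 differed by −0.30 by its brightest probe and lost its call in 7 of the 16 fits with an array left out. A second, dim Prdx1 probe was at 5.40 and 5.85 in Pthrp-/- TOs, against 5.58 and 5.83 in Pthrp+/+ TOs, where the groups overlapped. Gstt1 was again not well above background in Pthrp-/- TOs and at least 6.31-fold lower, and Gsta3 differed by −2.09, detected on 1 of the 2 Pthrp-/- arrays. Esd differed by −0.05 by its brightest probe and did not pass, while 2 of its other 3 probes were lower, with differences of −0.59 and −0.51. A fit of these 2 conditions alone called 5 higher and 9 lower.

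**Figure D3:**
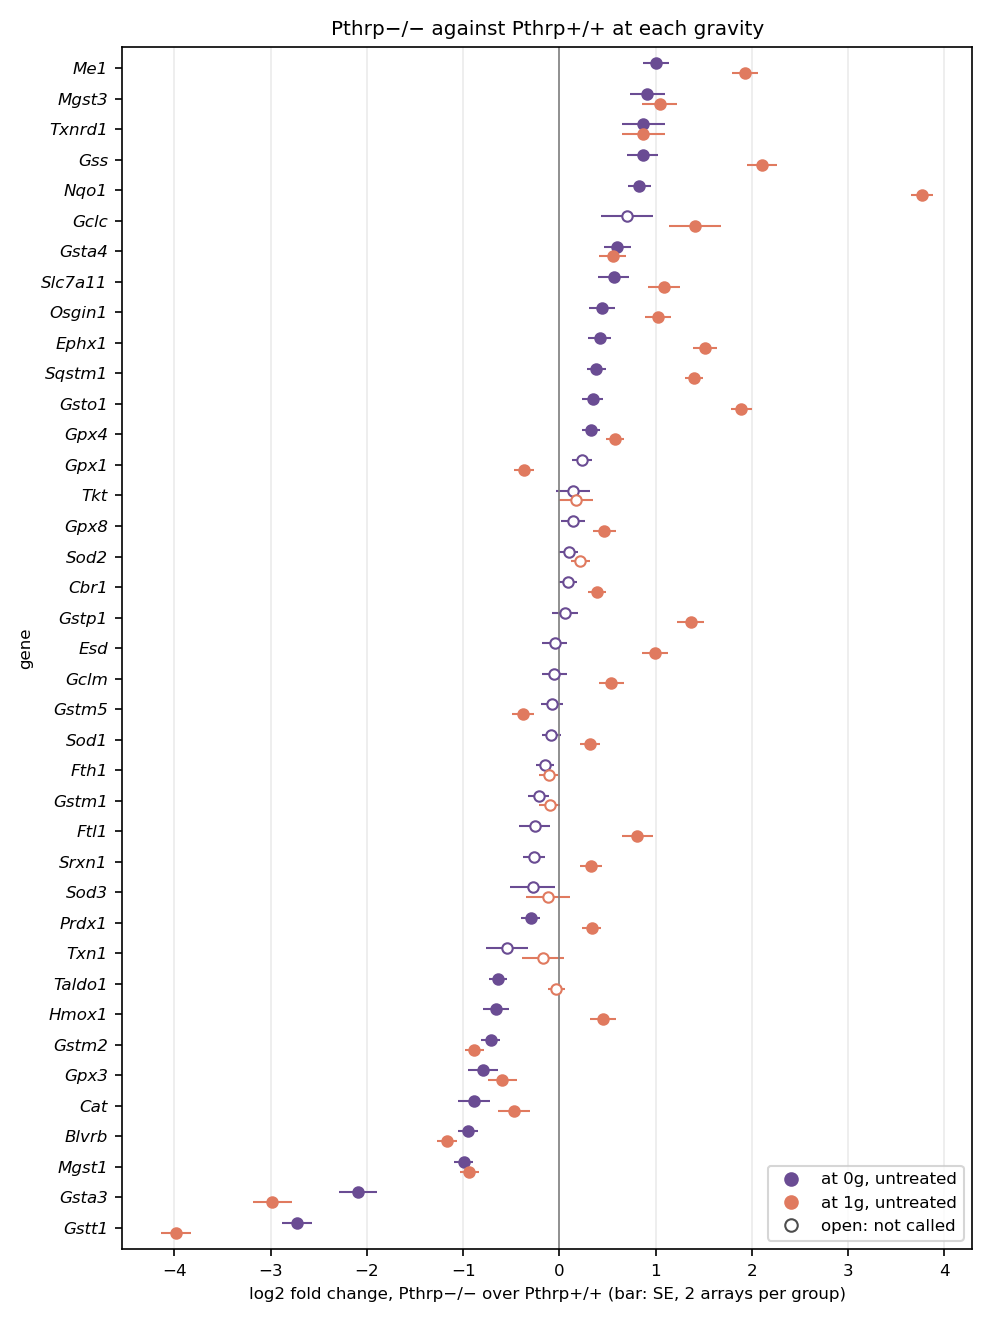
Log2 fold change of Pthrp-/- over Pthrp+/+ (horizontal axis) for the 39 genes (vertical axis) in untreated TOs at 0g and at 1g, with the standard error as bars and filled points for an adjusted p under 0.05. Nqo1 stood at 0.83 at 0g and 3.77 at 1g, and Hmox1 at −0.66 and 0.45.

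The treated cells gave the same comparison on other arrays. At 1g, 22 genes were higher and 7 lower in Pthrp-/- TOs, where over all genes 28.4% were higher and 22.4% lower (with cyclic loess 21 and 9, and 2226 and 2850 in place of 2968 and 2340). Nqo1 was at 12.73 and 12.74 in Pthrp-/- TOs, against 8.56 and 8.33 in Pthrp+/+ TOs, a difference of 4.29 ± 0.12 (SE, n = 2 each), or 19.6-fold. Gss was higher by 2.75 and Gsto1 by 1.90, and Gstt1 was at least 10.0-fold lower. At 0g, 11 were higher and 9 lower, where 18.6% and 15.2% of all genes were (with cyclic loess 8 and 9, and 1371 and 1900 in place of 1942 and 1586). There Gss was higher by 1.40, Nqo1 by 1.37 and Ephx1 by 1.09, and Gstt1 and Gsta3 differed by −2.95 and −2.47.

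Across the 4 ablation comparisons, 8 genes were higher in every one: Nqo1, Sqstm1, Osgin1, Gss, Me1, Gsto1, Ephx1 and Gpx4. Gstt1, Gsta3, Gstm2 and Mgst1 were lower in every one. The calls of Nqo1, Sqstm1, Gss and Me1 and of the 4 lower genes held in all 4 comparisons without any 1 array, while those of Osgin1, Gsto1, Ephx1 and Gpx4 in untreated cells at 0g were lost in 2 to 3 of 16 fits, and that of Osgin1 in treated cells at 0g in 2. Hmox1 passed in opposite directions, higher at 1g and lower at 0g, in treated cells too, where it differed by 0.45 at 1g and −0.51 at 0g and lost these calls in 2 and 3 of 16 fits. The gravity label of the Pthrp-/- arrays does not enter when both gravities of that genotype are averaged before they are set against Pthrp+/+ TOs at 1g. In that comparison, chosen after the data were seen, the Hmox1 difference in untreated cells was 0.24, with a limma adjusted p of 0.0995. Mean Hmox1 levels in untreated Pthrp-/- TOs, 9.84 at 0g and 10.26 at 1g, both lay below the 10.50 of untreated Pthrp+/+ TOs at 0g. In all 4 comparisons macrophage markers were lower in Pthrp-/- TOs, for 24, 21, 24 and 22 of the 24 genes in the order given above, with a median difference of −5.66 at 1g in untreated cells. In that comparison 7 of 11 osteoblast markers were lower, among them Alpl (−1.83) and Col1a1 (−1.53), and 4 of 4 adipocyte markers, led by Lpl (−4.10). Their part in the genotype differences of the defence genes was not tested, nor was that of cell viability.

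**Figure D4:**
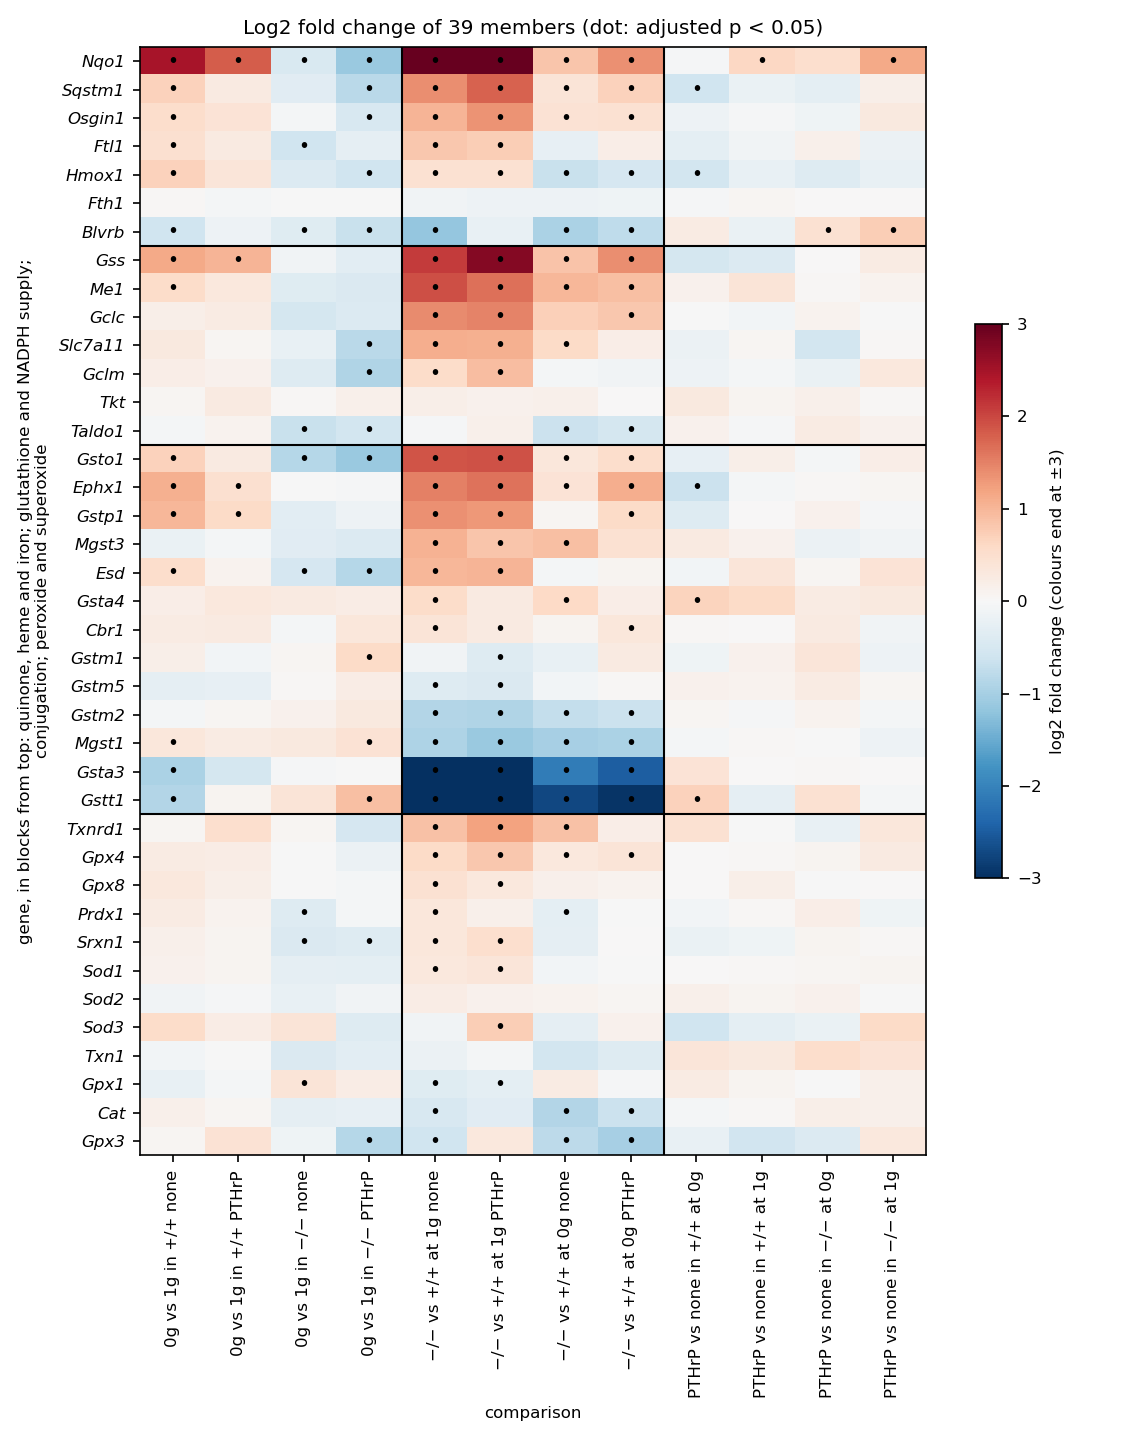
Log2 fold change (colour; scale ends at ±3) of the 39 genes (rows, in blocks by role) in the 12 pairwise comparisons (columns), with a dot where the adjusted p was under 0.05. Dots are most frequent in the 4 genotype columns, and Fth1, Tkt, Sod2 and Txn1 have none in any column.

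Daily PTHrP1-36 was compared with no treatment in each genotype at each gravity. In Pthrp+/+ TOs at 0g, 2 of 39 rose and 3 fell, where over all genes 4.98% rose and 3.05% fell. Gstt1 was at 8.37 and 8.28 in treated TOs, against 7.52 and 7.75 in untreated TOs, and rose by 0.69 ± 0.16 (SE, n = 2 each), with a limma adjusted p of 0.0177. Gsta4, the alpha-class transferase that conjugates the lipid peroxidation product 4-hydroxynonenal, was at 9.51 and 9.38 in treated TOs, against 8.64 and 8.91 in untreated TOs, and rose by 0.66. Ephx1 was at 12.49 and 12.41 in treated TOs, against 13.21 and 12.97 in untreated TOs, and fell by 0.64. Sqstm1 was at 11.53 and 11.59 in treated TOs, against 12.19 and 12.14 in untreated TOs, and fell by 0.60. Hmox1 was at 10.03 and 9.88 in treated TOs, against 10.69 and 10.30 in untreated TOs, and fell by 0.54. The groups did not overlap in any of the 5. Nqo1 was not among them, at 10.31 and 10.23 in treated TOs, against 10.30 and 10.30 in untreated TOs.

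Sqstm1 held its call when any array was left out. Gstt1, Gsta4 and Hmox1 lost theirs without array 1 of the untreated group or either treated array, with values of 0.58, 0.65 and 0.74 for Gstt1, 0.53, 0.60 and 0.73 for Gsta4, and −0.35, −0.62 and −0.47 for Hmox1. Ephx1 lost its call without array 1 of the untreated group (−0.53) or array 2 of the treated group (−0.60). A fit of these 2 conditions alone called 0 of 39 by limma's adjusted p and 10 at an unadjusted p under 0.05. Esd did not pass by its brightest probe, at −0.08, while its other 3 probes fell by 0.77, 1.00 and 1.00. Of 24 macrophage markers 11 rose with treatment here, and their summed level was 79943 to 82214 in treated TOs, against 63852 to 63929 in untreated TOs; their part was not tested.

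At 1g in Pthrp+/+ TOs, Nqo1 was the 1 gene of 39 to rise, and 0 fell by limma or by Wright and Simon's model (2 were lower at an unadjusted p under 0.05), where over all genes 0.192% rose and 0.527% fell. It was at 8.56 and 8.33 in treated TOs, against 7.96 and 7.70 in untreated TOs, a rise of 0.62 ± 0.12 (SE, n = 2 each) with a limma adjusted p of 0.0321, and it lost the call in 10 of 16 fits with an array left out. In Pthrp-/- TOs at 0g, Blvrb rose by 0.45, and 0 genes fell by either model (4 were lower at an unadjusted p under 0.05), where over all genes 1.11% rose and 1.03% fell. This call was lost in 13 of 16 fits. At 1g in Pthrp-/- TOs, 2 rose, and 0 fell by either model or at an unadjusted p under 0.05, beside 1.68% and 1.57% of all genes. Nqo1 was at 12.73 and 12.74 in treated TOs, against 11.65 and 11.53 in untreated TOs, 2.21-fold higher, with a rise of 1.14 ± 0.12 (SE, n = 2 each) and a limma adjusted p of 0.000288. Blvrb was at 11.62 and 11.72 in treated TOs, against 10.92 and 10.96 in untreated TOs, and rose by 0.74. Both held without any 1 array, although a fit of these 2 conditions alone called 0 of 39 by limma's adjusted p (8 at an unadjusted p under 0.05).

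The response to the peptide was compared between gravities in Pthrp+/+ TOs, as the change at 0g minus that at 1g. The difference was above 0 for Gstt1, at 0.97 ± 0.22 (SE) with a limma adjusted p of 0.0346, and below 0 for 0 of 39 genes by limma or by Wright and Simon's model (5 at an unadjusted p under 0.05), all by their brightest probes, where over all genes 2.28% were above and 0.891% below. The brightest probe of Esd, at −0.44, did not pass, while its other 3 probes were below 0, at −1.37, −1.33 and −0.78. The Gstt1 call was lost in 11 of 16 fits with an array left out. Of 24 macrophage markers 10 and of 4 adipocyte markers 2 had a difference above 0 in the same test, and their part was not tested.

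Regulators of the pathway were tested too. Nfe2l2 itself differed by 0.20 for 0g in untreated Pthrp+/+ TOs, by 0.11 for ablation at 1g and by −0.12 for treatment at 0g, and passed in none of the 3. Keap1 did not pass either. Maff, a small MAF partner, rose by 0.77 at 0g, was higher by 1.25 in Pthrp-/- TOs and fell by 0.89 with treatment. Bach1, the repressor, fell by 0.37 at 0g and differed by −0.70 in Pthrp-/- TOs. Nfe2l1, which encodes the related factor NRF1, rose by 0.43 and was higher by 0.80 in the same comparisons, and Mafg was higher by 0.76 with ablation. Of 8 regulators tested, 2 rose and 1 fell at 0g, 3 were higher and 1 lower in Pthrp-/- TOs at 1g, and 1 fell with treatment at 0g. Over all genes 13.0% rose and 13.4% fell at 0g, and 30.5% were higher and 22.0% lower with ablation at 1g. With treatment at 0g, 4.98% of all genes rose and 3.05% fell. These shares also stand beside the lists below.

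Further glutathione transferases outside the list of 43 also split in untreated Pthrp-/- TOs at 1g, with 4 of 11 higher and 3 lower. Gsta1 was not well above background in Pthrp+/+ TOs and at least 9.48-fold higher in Pthrp-/- TOs, and Gsta2 at least 3.67-fold higher. Gsto2 was higher by 1.42, and Mgst2, not well above background in Pthrp-/- TOs, was at least 3.18-fold lower. At 0g in untreated Pthrp+/+ TOs 1 of the 11, Gsto2, rose by 0.53.

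Of 14 other redoxins and peroxidases, 1 rose and 4 fell at 0g, and 4 were higher and 4 lower in Pthrp-/- TOs at 1g. Txnip, which binds thioredoxin and restrains it, fell by 1.15 at 0g and differed by −1.56 with ablation. Glutaredoxin (Glrx) fell by 0.81 and differed by −1.99. Prdx4, a peroxiredoxin of the endoplasmic reticulum, fell by 0.68 and differed by −1.53, and Gpx7 differed by −1.26 with ablation. With treatment at 0g Gpx7 rose by 0.46, the 1 of 14 that passed.

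A further list held 20 tested genes that are described as NRF2 targets or that handle glutathione. Of these, 5 rose and 3 fell at 0g, and 9 were higher and 6 lower with ablation at 1g. Chac1, listed because it degrades glutathione, was higher by 2.52 in Pthrp-/- TOs and fell by 0.64 with treatment in Pthrp+/+ TOs at 0g. Hagh, a glyoxalase that releases glutathione, was higher by 1.54, and Slc40a1, the iron exporter ferroportin, differed by −1.97. The carbonyl reductase Cbr3 rose by 0.59 at 0g, and Ggt5 and Blvra fell by 0.83 and 0.78.

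Nqo1 is also a known target of the aryl hydrocarbon receptor, so a short list of that receptor's targets was set beside it. At 0g in untreated Pthrp+/+ TOs, 4 of 5 tested rose, led by Aldh3a1 (3.22) and Ahrr (2.07), and with ablation at 1g 4 of 5 were higher and 1 lower, Aldh3a1 by 2.55 and Ahrr by 2.06. With treatment in Pthrp+/+ TOs at 0g both fell, by 0.44 and 0.43. Cyp1a1 and Cyp1a2, also on this list, were detected on no array. The part of this receptor in the Nqo1 changes was not tested. Of 10 iron and heme genes, 2 fell at 0g, and 1 was higher and 6 lower with ablation. Trf, transferrin, was not well above background in Pthrp-/- TOs at 1g and at least 16.3-fold lower, and Hmox2, the constitutive heme oxygenase, differed by −0.98.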

How the data were processed

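The arrays, Illumina Mouse Ref-8 v2.0, carried labelled RNA of 16 cultures. The deposited intensities are bead-summarised on a linear scale and not normalized between arrays, and each has a detection p-value that the authors deposited beside it. The authors' normalized log2 values were made with lumi in FlexArray, and they tested them with Wright and Simon's model. The version of lumi is not given in the sources used here. Column medians of these values were 7.58 to 7.60, and each array ranked its probes as the intensities do. The exact transform is not stated.

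The neqc function of limma 3.58.1 (R 4.3.3) subtracted the background with an offset of 16, normalized by quantiles and took log2. Probes detected at p under 0.05 on at least 2 arrays were tested (15279), in 1 fit of 8 condition means with lmFit and eBayes (8 residual and 4.98 prior degrees of freedom), with Benjamini-Hochberg adjustment over all of them. A gene is represented by its tested probe of highest mean. Of 25697 probes, 23978 were given 1 gene symbol and 1719 none. Where a probe was not detected on either array of a group, a fold is a lower limit, taken against the dimmest signal that counts as detected. The number of arrays limits the precision.

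Values on every array are given for up to 4 genes with the largest rise and 4 with the largest fall in each of 3 comparisons (0g and ablation in untreated cells, treatment at 0g in Pthrp+/+ TOs), among called genes whose arrays do not overlap, and for Nqo1, Hmox1, Gclc, Gclm and Txnrd1. Other genes with array values were chosen after their values were seen. Of 13 further lists of 169 genes, up to 4 called genes each are named. The members and lists were chosen with earlier results of these data known. Lists of osteoclast, erythroid, chondrocyte, adipocyte and endothelial markers were also counted. The processing was tested on simulated data. Alternatives were no background correction, cyclic loess, the authors' values, no filter or at least 8 arrays, Wright and Simon's model, a fit of only the groups compared, limma's trend and robust options, weights for arrays, replicate blocks, any probe of a gene, and leaving out each array. Promoter windows and gene annotation are from RefSeq. Figures were drawn with matplotlib 3.10.9 and pandas 2.3.3.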

Additional observations from a re-analysis of the deposited data

Results flagged for a closer look

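The response to 0g differed between the genotypes for 18 of the 39 genes, by limma's interaction term in untreated cells at an adjusted p under 0.05. The difference of log2 changes, Pthrp-/- minus Pthrp+/+, was −2.94 for Nqo1, −1.55 for Gsto1, −1.31 for Gstp1, −1.24 for Gss, −1.11 for Hmox1, −1.09 for Ephx1, −1.07 for Ftl1, −1.04 for Esd (brightest probe; its other 3 probes were at −3.57, −3.22 and −2.98) and −1.02 for Sqstm1. It was −0.93 for Me1, −0.63 for Prdx1, −0.61 for Taldo1, −0.60 for Srxn1, −0.59 for Gclm and −0.58 for Osgin1. It was 1.26 for Gstt1, 0.89 for Gsta3 and 0.60 for Gpx1. In Pthrp+/+ TOs the response of Gstt1 to the peptide differed between 0g and 1g by 0.97. In the same test 3 of the 4 Esd probes, though not the brightest, were below 0, at −1.37, −1.33 and −0.78. The Ftl1 probe was dim. No explanation was tested.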

How the results depend on the processing

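For the genes chosen for array values in the 3 main comparisons, 855 values under the alternatives stayed on the same side of the threshold, 21 lost the call and 0 reversed. A change of sign was counted as a reversal only where the value passed under the reported or the alternative setting. Values that passed in neither could change sign. Gclc at 0g in untreated Pthrp+/+ TOs ran from −0.11 to 0.48 with an array left out. The counts of changed genes at 0g in untreated Pthrp+/+ TOs, with ablation at 1g and in treated cells at 0g, and for the genotype difference stayed within 1.5 times of the reported count under the alternatives tried. For 0g in untreated Pthrp-/- TOs (9) the count was 15 with the authors' values, 0 with only the groups compared and 2 with array weights. For 0g in treated Pthrp+/+ TOs (4) it was 8, 7 and 15 under the same settings. For ablation at 0g in untreated cells (22) it was 14 with only the groups compared and 14 with array weights. For treatment of Pthrp+/+ TOs at 0g (5) it was 8 with the authors' values, 0 with only the groups compared and 8 with a trend. For treatment of Pthrp+/+ TOs at 1g (1) it was 3 with no background correction, 0 with cyclic loess, 2 with the authors' values, 0 with only the groups compared, 2 with a trend and 3 with array weights. For treatment of Pthrp-/- TOs at 0g (1) it was 2 with no background correction, no filter, at least 8 arrays or a trend, 5 with the authors' values, and 0 with cyclic loess, only the groups compared or array weights, and at 1g (2) it was 0 with only the groups compared. For the treatment difference between gravities (1) it was 3 with no background correction or a trend, 0 with cyclic loess, 5 with the authors' values, and 2 with at least 8 arrays or any probe. The cause was not tested.

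Leaving out each array in turn gave 12 to 17 for 0g in untreated and 2 to 5 in treated Pthrp+/+ TOs, 3 to 11 and 9 to 16 in untreated and treated Pthrp-/- TOs, 26 to 32 and 17 to 23 for ablation at 1g and 0g in untreated cells, 22 to 29 and 15 to 22 in treated cells, 1 to 7 and 0 to 1 for treatment of Pthrp+/+ TOs at 0g and 1g, 0 to 3 and 2 to 2 for Pthrp-/- TOs, 15 to 20 for the genotype difference and 0 to 2 for the treatment difference. For 0g in untreated Pthrp-/- TOs the count was 5 without array 2 of treated Pthrp+/+ TOs at 1g, and 4 and 3 without array 1 and array 2 of untreated Pthrp-/- TOs at 1g. For 0g it was 9 in treated Pthrp-/- TOs without array 1 at 0g, and 2 in treated Pthrp+/+ TOs without any 1 of the 4 arrays compared. For treatment of Pthrp+/+ TOs at 0g it was 1 without array 1 of the untreated or array 2 of the treated group and 2 without array 1 of the treated group. Over 28 pairs of conditions the replicate differences correlated at −0.30 to 0.22. For treated and untreated TOs at 0g they correlated at 0.08 in Pthrp+/+ and 0.03 in Pthrp-/- cells. This cannot exclude pairing, since the sources do not say that a replicate number marks a shared run. With a replicate block the counts were 15, 9, 4 and 15 for 0g (untreated Pthrp+/+ and Pthrp-/-, treated Pthrp+/+ and Pthrp-/-), 32, 23, 29 and 20 for ablation, and 18 for the genotype difference. A replicate block gave 2 for treatment of Pthrp-/- TOs at 0g and 2 for the treatment difference, and a replicate block within genotype gave 2 and 3. Precision depended on the probe: with 2 arrays per condition the standard error of a difference was 0.27 for Gclc, a dim probe, and 0.12 for Nqo1.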
